A study of Mus musculus with 9 samples.

Results

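Genes whose level in muscle stem cells at 7 days after birth lay above, or below, the levels at both an earlier and a later age are described here. A gene was taken as a neonatal peak when its 3 neonatal arrays were all above the other 6 arrays, and as a neonatal trough when they were all below them. Of 12488 genes measured, 980 met this rule (7.85%), 481 as peaks (3.85%) and 499 as troughs (4.0%). The study profiled sorted cells of C57BL/6 mice on 9 Illumina bead arrays, with 3 arrays from fetuses at embryonic day 16.5, 3 from neonates at day 7 and 3 from adults of 2 months. All 3 groups shared the strain and the sort on α7-integrin and CD34, and the labels name no transgene, mutation or treatment in any of them. Whether arrays of one age stem from different animals is not in the labels. A p-value here therefore weighs differences only against the spread among these arrays, which could be technical. The number of arrays limited the precision, since array data carry no read depth.

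Muscle stem cells lie under the basement membrane of muscle fibres and carry the transcription factor Pax7. Before birth they and their progenitors divide and build the muscle, shortly after birth many still divide and fuse into growing fibres, and in the adult most are quiescent until an injury. The neonatal stage therefore sits between a proliferating and a quiescent population, and a gene that follows this course in 1 direction has an intermediate neonatal level. The genes described here did not: they departed from both neighbouring stages in the same direction.

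Both sort markers and Pax7 were read first. The laminin receptor subunit Itga7 had log2 intensities of 12.34, 11.91 and 12.19 in the fetal arrays, 12.89, 12.33 and 12.60 in the neonatal arrays and 13.21, 12.71 and 13.12 in the adult arrays, and its difference, the neonatal mean minus the average of the fetal and adult means, was 0.03 ± 0.16 (SE, n = 3 arrays per stage; adjusted p = 0.92). For Cd34 the difference was -0.11 ± 0.20 (SE; adjusted p = 0.744). Neither was called, and neither was a peak or a trough. Pax7 read 8.42, 8.54 and 8.50 in fetal, 8.45, 8.57 and 8.47 in neonatal and 9.99, 9.63 and 9.28 in adult arrays, so its fetal and neonatal ranges overlapped, and the called difference of -0.56 ± 0.14 (SE; adjusted p = 0.0162; lost without neonatal replicate 3) lay in its adult level. Myod1, which commits cells to the muscle lineage, was higher by 0.64 ± 0.11 (SE; adjusted p = 0.00328), but its neonatal and adult arrays overlapped. The differentiation factor Myog was not called (1.29 ± 0.43, SE; adjusted p = 0.058), and adult replicate 3 read 12.29 for it against 10.41 and 9.86 in the other 2 adult arrays.

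Some arrays stood apart. Neonatal replicate 1 was higher than its 2 neighbours in markers of cells that share the muscle with stem cells: the median log2 intensity over 18 fibroadipogenic markers was 10.38 in it against 9.27 and 8.97, over 20 endothelial markers 8.72 against 7.78 and 7.88, and over 11 Schwann and neural markers 8.87 against 7.63 and 7.88. It was the neonatal array nearest to the other stages in 225 of 481 peaks and 273 of 499 troughs. Its deposited values also carried up to 7 significant digits, against 10 in the other 8 arrays. Adult replicate 3 was the array of another stage nearest to the neonatal ones in 129 peaks and 118 troughs. The part of other cell types in the results was not tested, and in RNA of a sorted population fewer cells of a type and less RNA per cell cannot be told apart.

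**Figure D1:**
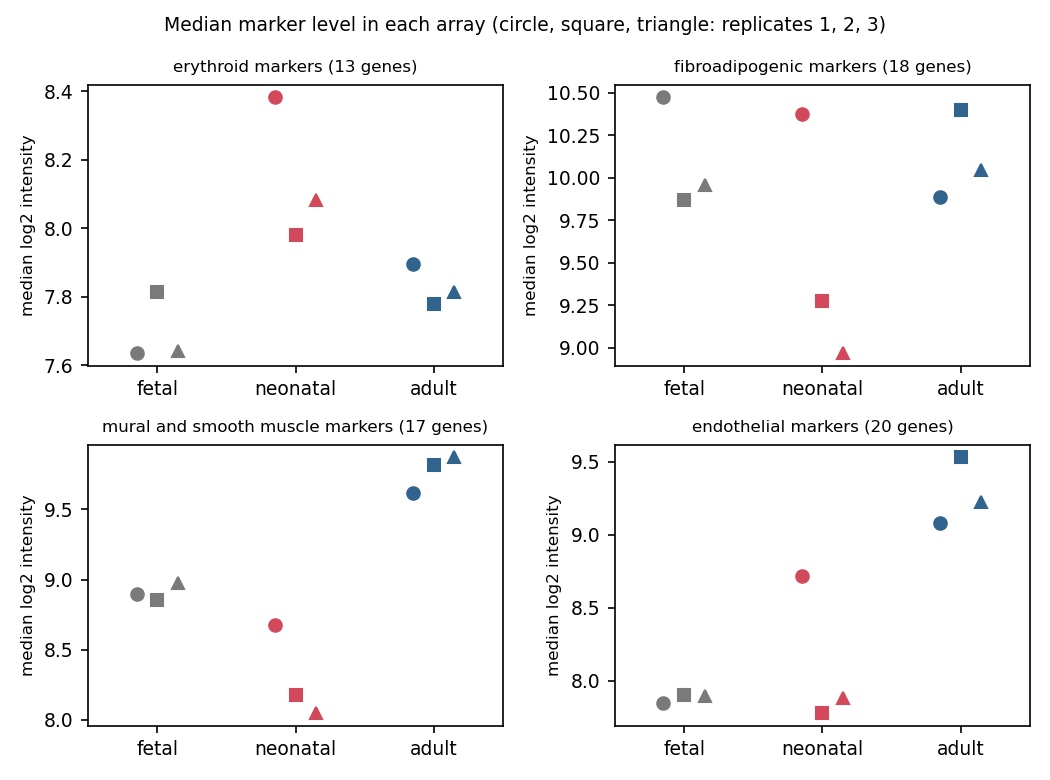
Median log2 intensity of 4 marker lists in each array (y axis, separate scales), by stage (x axis), with 1 point per array and the symbols marking replicates 1 to 3. The erythroid median was highest in the neonatal arrays, and neonatal replicate 1 stood above its 2 neighbours in the other 3 lists.

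All 12488 genes were tested in 2 ways in 1 limma model. The first test, on the neonatal mean minus the average of the other means, called 2173 genes at a Benjamini-Hochberg adjusted p under 0.05 (17.4%), with 1045 higher (8.37%) and 1128 lower (9.03%) in neonatal cells. This difference is also large for a gene that changes at a single step, and in 285 of the genes called higher and 311 of those called lower the neonatal mean lay between the fetal and adult means. The second test asked whether the neonatal level differed in the same direction from the fetal level and from the adult level, taking the larger of both p-values. It called 68 genes (0.545%), 35 above (0.280%) and 33 below (0.264%), and all 68 were also peaks or troughs. At an unadjusted p under 0.05 these tests gave 3914 and 785 genes.

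Of the peaks, 355 were called higher and 126 were not called by the first test, and of the troughs 376 were called lower and 123 were not called. Most departures were small: the smaller of a gene's steps, to fetal or to adult, had a median of 0.35 on the log2 scale in peaks and -0.38 in troughs. A smaller step of at least 1, which is 2-fold, was seen in 24 peaks and 31 troughs. Among the peaks, 107 were called lower and 28 higher in adult than in fetal cells, while among the troughs 129 were called higher and 31 lower in adult cells.

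The calls depended on single arrays. Without neonatal replicate 2 or 3 the first test called 1127 and 834 genes, and the second ranged from 18 genes without neonatal replicate 3 to 191 without neonatal replicate 1, of which 136 were below. Without adult replicate 3 the second test called 132 genes. All 68 genes of the second test kept their call in the first under each of the 9 omissions, and 18 of them (13 peaks and 5 troughs) also kept their call in the second. The calls of those 18 are described as kept throughout.

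At the edge of the rule the choice turned on small differences. The lowest neonatal value of Pigk was 8.84141 and its highest other value 8.84111, which made it a peak, whereas Sec14l2, with 7.75828 against 7.75869, was not. The highest neonatal value of Paip2 was 11.1209 and its lowest other value 11.1214, which made it a trough, whereas Ankrd7, with 7.65895 against 7.65874, was not. A check came from probes not used to choose the members: 109 of 319 other probes of peak genes were peaks themselves (34.2%) and 73 of 349 other probes of trough genes were troughs (20.9%), against 3.54% and 2.08% of the 7055 other probes of genes that were neither. Probes of 1 gene read the same RNA samples, so they bear on the probe and not on the stage.

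**Figure D2:**
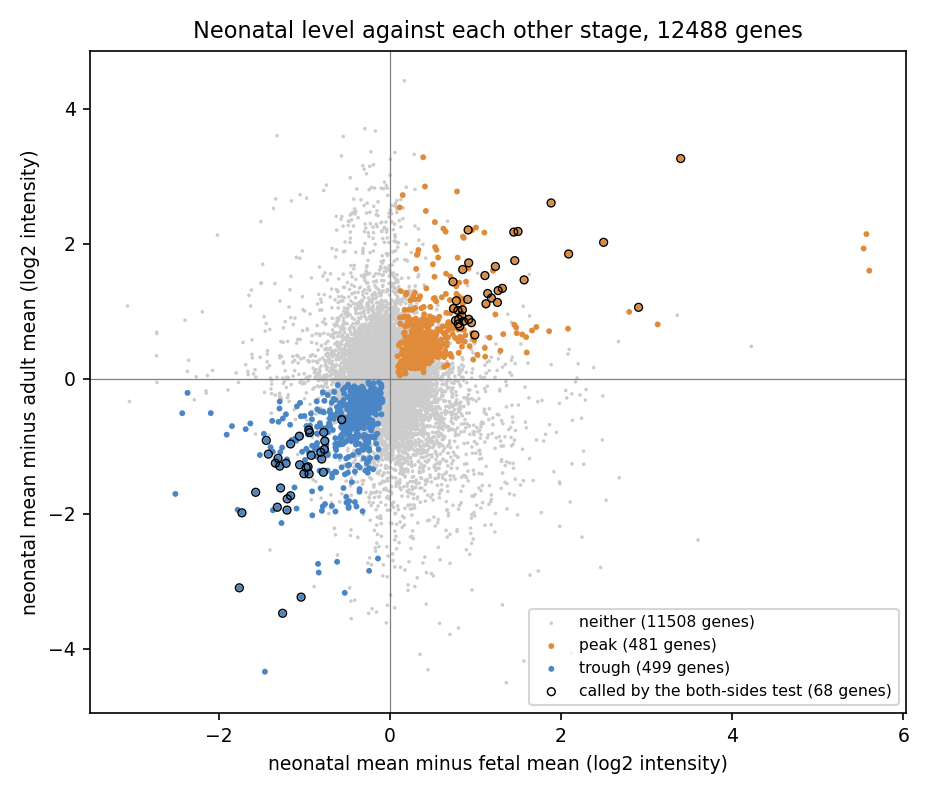
Each of 12488 genes by its neonatal mean minus fetal mean (x axis) and neonatal mean minus adult mean (y axis), both in log2 intensity, with peaks in orange, troughs in blue and the 68 genes called on both sides ringed. The ringed genes lie away from both axes, with 35 at the upper right and 33 at the lower left.

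Replication-dependent histone genes, which lie in clusters and are transcribed when DNA is copied, made up a large group among the peaks. They were picked out after the values had been seen, so they are described with no test of the group. Of 51 measured, 27 were peaks (against 3.85% of all genes) and 0 were troughs, 40 were called higher (8.37% of all genes), 0 were called lower, and 11 were called above both other stages (0.280% of all genes). Leaving out 1 array at a time gave 27 to 42 genes called higher, and the 11 called above both became 4 without neonatal replicate 3, 5 or 6 without neonatal replicate 2 or any 1 fetal array, and 8 to 14 without any other. Families differed in form. Of 12 H4 genes 11 were peaks and all 12 were called higher, whereas of 12 H2b genes 8 were peaks and 11 were called higher. The 8 H3 genes included 4 peaks, and the 4 H1 linker histone genes 3. Among 15 H2a genes there was 1 peak.

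Promoters of 3 histone peaks are shown because members of this group moved together, each as the 250 bases before its RefSeq start in GRCm38.p6, read along the gene's strand. Capitals mark, on either strand, the CCAAT box by its 5 letters and the TATA box by the letters TATAAA. H4c12 lies on chromosome 13 at chr13:21750554-21750803 (minus strand), H2bc3 at chr13:23746484-23746733 (plus strand) and H3c6 at chr13:23562386-23562635 (minus strand).
H4c12: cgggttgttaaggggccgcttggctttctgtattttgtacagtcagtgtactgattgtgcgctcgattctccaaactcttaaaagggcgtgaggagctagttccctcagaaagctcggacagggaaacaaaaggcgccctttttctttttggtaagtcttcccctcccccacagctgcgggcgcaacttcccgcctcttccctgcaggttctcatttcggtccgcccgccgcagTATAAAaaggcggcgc
H2bc3: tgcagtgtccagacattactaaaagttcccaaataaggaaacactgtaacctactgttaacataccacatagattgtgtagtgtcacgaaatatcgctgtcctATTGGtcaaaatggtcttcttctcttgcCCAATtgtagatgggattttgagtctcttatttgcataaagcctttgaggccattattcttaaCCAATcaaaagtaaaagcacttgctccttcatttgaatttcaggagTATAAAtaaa
H3c6: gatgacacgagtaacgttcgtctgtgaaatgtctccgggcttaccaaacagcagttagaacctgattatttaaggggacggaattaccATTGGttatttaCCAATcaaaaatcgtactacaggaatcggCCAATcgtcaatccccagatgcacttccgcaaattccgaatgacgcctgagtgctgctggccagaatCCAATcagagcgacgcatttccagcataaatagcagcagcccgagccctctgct
The H4c12 stretch held 1 TATA box and 0 CCAAT boxes, that of H2bc3 held 1 and 3, and that of H3c6 held 0 and 4. Over windows of 300 bases, reaching 50 past the start, 28 of 46 histone genes with a window held the TATA box letters (60.9%), against 14.2% of all 27025 promoters and 8.91% of the 10049 of genes tested here, and 38 held the CCAAT letters (82.6%), against 37.9% and 38.8%. All 10 H2b windows held a CCAAT box and 5 a TATA box, whereas of 11 H4 windows 3 held a CCAAT box and 8 a TATA box. Of 23 histone peaks with a window 16 held each motif (69.6%). Among all 386 peaks with a window, histone genes included, the shares were 11.4% and 36.8%, so the TATA share of the peaks was below that of all promoters and above that of the genes tested. The motifs were chosen after the group was seen, and a match describes letters only.

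H4c12 encodes a copy of histone H4, the core histone that pairs with H3. Its log2 intensities were 8.92, 8.64 and 9.05 in fetal, 10.20, 10.19 and 10.59 in neonatal and 8.78, 8.53 and 8.42 in adult arrays. All 3 neonatal arrays were above the highest fetal array, a difference of 1.60 ± 0.14 (SE; adjusted p = 6.86e-05), and its call above both stages was kept throughout. H4c3, another H4 gene, read 8.21, 8.27 and 8.17 in fetal, 9.09, 9.04 and 9.05 in neonatal and 8.19, 8.01 and 8.18 in adult arrays, with fetal and adult arrays at the same height and a difference of 0.89 ± 0.09 (SE; adjusted p = 0.000178), also kept throughout. H4c1 was higher by 1.32 ± 0.14 (SE), H4c18 by 1.56 ± 0.14 and H4c9 by 1.23 ± 0.13, and H4c18 and H4c9 were in addition lower in adult than in fetal cells.

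H2bc21, a copy of histone H2B, read 9.90, 9.72 and 10.02 in fetal, 11.15, 10.92 and 10.999 in neonatal and 9.96, 9.66 and 9.67 in adult arrays. Here the fetal and adult ranges overlapped, and the neonatal arrays stood above both by 1.20 ± 0.11 (SE; adjusted p = 0.000102; kept throughout). A second, dimmer probe of H2bc21 had no peak, at 8.28, 8.18 and 8.004 in fetal, 8.54, 8.34 and 8.17 in neonatal and 8.37, 9.01 and 8.77 in adult arrays, a difference of -0.08. H2bc18 was dimmer, at 7.35, 7.39 and 7.54 in fetal, 8.33, 8.51 and 8.22 in neonatal and 7.46, 7.39 and 7.56 in adult arrays, with a difference of 0.90 ± 0.10 (SE; adjusted p = 0.000306; kept throughout). H2bc3, whose promoter is shown, was higher by 1.04 ± 0.15 (SE; adjusted p = 0.00119), with fetal and adult arrays between 7.63 and 8.16. For H3c6 the fetal arrays lay between 10.50 and 10.70, the neonatal between 11.12 and 11.75 and the adult between 10.08 and 10.80, a difference of 0.98 ± 0.17 (SE; adjusted p = 0.00323). H3c4 was higher by 0.93 ± 0.13 (SE; adjusted p = 0.000932) and the linker histone H1f5 by 0.80 ± 0.10 (SE; adjusted p = 0.000534).

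Most H2a genes were bright in both fetal and neonatal arrays. Whether the upper end of the scale hid a step between these stages was not tested. The family's median neonatal minus fetal step was 0.06 and its median neonatal minus adult step 2.29, and 10 of 15 were called higher. That count was 1 without neonatal replicate 2, 1 without neonatal replicate 3 and 3 without adult replicate 1. The median H2a level was 14.84 to 15.03 in fetal and 14.60 to 14.79 in neonatal arrays, near the upper end of the scale, where the highest value of an array was 15.86 to 16.30. It was 11.55, 11.16 and 12.92 in the adult arrays. H2a genes were split after the values had been seen. The 5 with a mean under 11 over all arrays had neonatal minus fetal steps of 0.24 to 1.44. The largest of these was that of H2ac19, whose adult mean of 11.54 lay above its neonatal mean of 10.89. The other 10 had steps of -0.56 to 0.11, and the family's 1 peak, H2ac7, was among them. The lowest steps were those of H2ac21 (-0.56) and H2ac11 (-0.54), with fetal means of 13.11 and 13.78, further below the upper end. Fetal means of the rest of these 10 were 14.95 to 15.79. Of the 5 genes 1 was called higher, and of the other 10 genes 9.

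The division genes measured beside them did not peak. Of 49 cell cycle genes 39 were called higher and 1 lower, with 0 peaks, against 8.37%, 9.03% and 3.85% of all genes. Their medians were -0.20 for the neonatal minus fetal step and 2.25 for the neonatal minus adult step. Without neonatal replicates 2 and 3 in turn 19 and 17 were called higher. Replacement histones, made outside DNA synthesis, had mixed results: H3f3a and H3f3b were not called (0.39 ± 0.17 and -0.17 ± 0.12, SE), and H2az1 was a peak, higher by 0.72 ± 0.10 (SE; adjusted p = 0.000737), mostly over adult cells. Further histone variants called higher, though not peaks, were H2az2 (0.54 ± 0.14), H2ax (0.43 ± 0.11) and H1f10 (0.81 ± 0.21, SE; adjusted p = 0.0238, 0.0224 and 0.021). Their calls were kept in 6, 7 and 8 of 9 omissions. For H2ax and H1f10 the neonatal mean lay between the fetal and adult means. H2aj was not called (0.26 ± 0.14, SE). Clustered histone copies are close to identical in sequence, so a probe may read more than 1 of them. Their mRNAs mostly end without a poly(A) tail, and the labelling kit primes from poly(A). How far either affects these values was not tested.

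**Figure D3:**
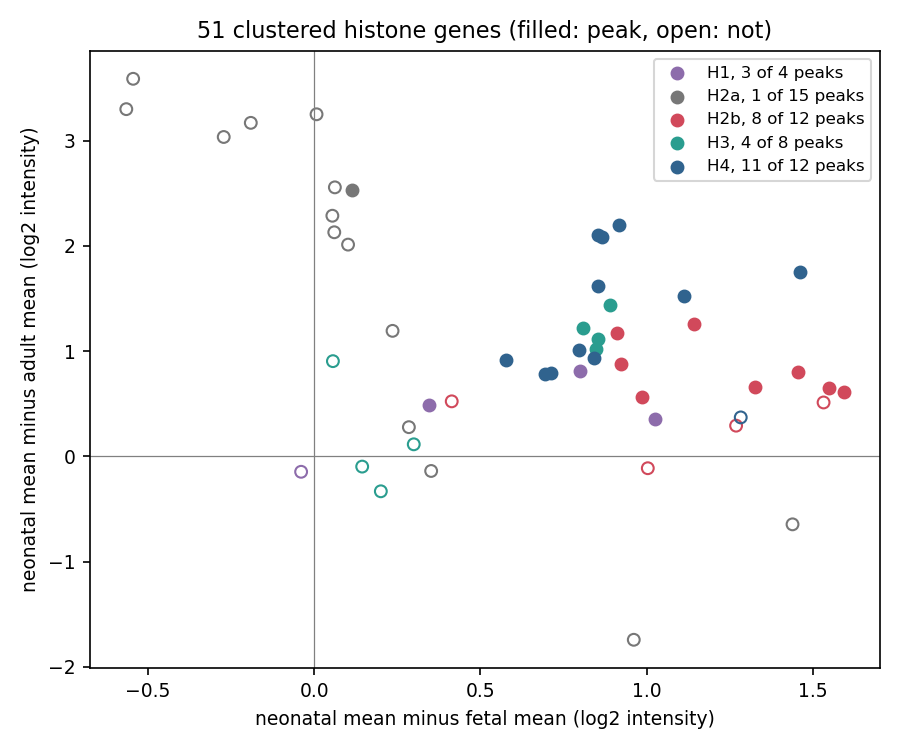
The 51 clustered histone genes by neonatal mean minus fetal mean (x axis) and neonatal mean minus adult mean (y axis), in log2 intensity, coloured by family, with filled points for peaks. H4, H2b and H3 peaks lie at the upper right, while most H2a genes lie near 0 on the x axis and above 2 on the y axis.

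Red blood cell genes gave the largest peaks. Of 13 erythroid markers 6 were called higher, 0 lower and 5 were peaks, against 8.37%, 9.03% and 3.85% of all genes. The median difference of the markers was 0.37 (0.22 without neonatal replicate 1) against -0.01 over all genes. These genes serve haem synthesis, oxygen transport and the red cell membrane, and mark red blood cells and their precursors. The summed intensity of the list was 3185 to 9501 in fetal arrays, 89345 to 171924 in neonatal arrays and 30553 to 44001 in adult arrays, and neonatal replicate 2 was the lowest of its stage. Of the 13 markers, 5 had a mean under 8 in every stage, at the low end of the scale.

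Slc4a1, the anion exchanger band 3 of the red cell membrane, read 7.58, 7.81 and 7.58 in fetal, 11.98, 9.85 and 11.35 in neonatal and 7.91, 7.85 and 7.63 in adult arrays. Fetal and adult arrays were at the low end and overlapped, while the lowest neonatal array was 9.85. The difference was 3.33 ± 0.34 (SE; adjusted p = 0.000162) and its call on both sides was kept throughout. Alas2, which makes the first intermediate of haem in erythroid cells, read 7.25, 7.39 and 7.19 in fetal, 10.35, 8.84 and 10.14 in neonatal and 7.88, 7.64 and 7.75 in adult arrays and was higher by 2.26 ± 0.26 (SE; adjusted p = 0.000322). Its call on both sides was lost without neonatal replicate 3 and without adult replicate 2.

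The 250 bases before the start of Alas2, at chrX:150547167-150547416 on the plus strand of GRCm38.p6, are shown for the letters AGATAA on either strand, the motif of GATA factors, in capitals.
Alas2: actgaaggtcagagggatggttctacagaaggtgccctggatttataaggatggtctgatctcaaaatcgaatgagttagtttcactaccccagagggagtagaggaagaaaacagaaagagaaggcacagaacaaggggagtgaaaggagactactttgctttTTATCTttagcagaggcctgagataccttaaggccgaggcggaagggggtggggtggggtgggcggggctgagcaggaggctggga
It held 1 match. Over windows of 300 bases, 2 of the 4 erythroid peaks with a window held the motif, against 11.4% of all promoters and 6.77% of those of genes tested.

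The globin genes were bright in the adult arrays too. Hbb-bs, an adult beta globin, read 8.84, 11.26 and 9.85 in fetal, 15.76, 15.06 and 15.75 in neonatal and 13.79, 13.59 and 13.40 in adult arrays. The order was fetal, adult, neonatal without overlap, and fetal replicate 2 was above the other 2 fetal arrays. Its difference was 3.73 ± 0.39 (SE; adjusted p = 0.000185), and those of Hbb-bt and the alpha globin Hba-a1 were 3.85 ± 0.44 and 3.60 ± 0.48 (SE; adjusted p = 0.000314 and adjusted p = 0.000754). None of these 3 globins was called on both sides. Their neonatal values, 14.48 to 15.78, were near the highest values of the neonatal arrays, 15.89 to 16.02, where the scale limits how large a difference can read. Because beta globin copies are near-identical, the probes of Hbb-bs and Hbb-bt may read each other's RNA.

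Further peaks with erythroid roles were found after the values had been seen. Epor, the erythropoietin receptor, read 8.05, 8.02 and 7.88 in fetal, 8.65, 9.003 and 9.16 in neonatal and 8.18, 8.07 and 8.07 in adult arrays and was higher by 0.89 ± 0.12 (SE; adjusted p = 0.000724). Nfe2, a transcription factor of red cell and platelet precursors, was higher by 0.84 ± 0.13 (SE; adjusted p = 0.00148) from fetal and adult values of 7.14 to 7.52. Trim10, known from red cell maturation, was higher by 1.19 ± 0.17 (SE; adjusted p = 0.00113), and Tspan33, a tetraspanin of erythroid precursors and B cells, by 0.89 ± 0.12 (SE; adjusted p = 0.000717). Tfrc, the transferrin receptor through which dividing cells and red cell precursors take up iron, read 10.999, 11.48 and 11.60 in fetal, 11.98, 12.33 and 11.87 in neonatal and 10.66, 10.87 and 11.16 in adult arrays and was higher by 0.93 ± 0.16 (SE; adjusted p = 0.00307). Of 27 iron and haem genes 3 were called higher and 4 lower (2 lower without neonatal replicate 3), against 8.37% and 9.03% of all genes. Ftl1, the ferritin light chain that stores iron, was a trough at -0.49 ± 0.11 (SE; adjusted p = 0.0123; lost without neonatal replicate 3).

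The other named peaks had varied roles. Wscd1 had log2 intensities of 9.78, 9.24 and 9.49 in fetal, 11.31, 11.38 and 11.47 in neonatal and 8.57, 8.36 and 9.42 in adult arrays, a difference of 2.24 ± 0.20 (SE; adjusted p = 9.87e-05). Dusp2, a nuclear phosphatase that switches off MAP kinases, read 9.42, 8.94 and 8.74 in fetal, 11.17, 11.03 and 11.16 in neonatal and 9.07, 8.97 and 9.78 in adult arrays. Its 3 neonatal arrays lay close together and above the highest other array, adult replicate 3, and the difference was 1.97 ± 0.19 (SE; adjusted p = 0.00011). It was the 1 gene called higher among 32 immediate early and stress genes, against 8.37% of all genes. In this list 8 were called lower (3 without neonatal replicate 2 or 3), against 9.03% of all genes. The median step of that list was 0.30 over fetal and -0.73 against adult cells. The calls of Wscd1 and Dusp2 on both sides were kept throughout.

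St8sia2, the enzyme that adds polysialic acid to the adhesion molecule NCAM, read 8.66, 8.20 and 8.45 in fetal, 10.04, 9.81 and 9.81 in neonatal and 7.59, 7.71 and 7.84 in adult arrays. The adult arrays were at the low end, the fetal arrays in between and the neonatal arrays highest, with a difference of 1.81 ± 0.12 (SE; adjusted p = 3.62e-05). Ctnna2, the neuronal alpha catenin that links cadherins to actin, had the same order at 8.15, 8.07 and 8.29 in fetal, 9.33, 9.80 and 9.87 in neonatal and 7.40, 7.32 and 7.74 in adult arrays, a difference of 1.84 ± 0.14 (SE; adjusted p = 5.01e-05), while a second probe of Ctnna2, at 7.41 to 7.85 in all 9 arrays, differed by -0.02. Smpdl3b, a membrane-anchored phosphodiesterase of sphingolipid metabolism, read 9.10, 9.33 and 9.22 in fetal, 10.70, 10.86 and 10.79 in neonatal and 9.07, 9.32 and 9.57 in adult arrays, with overlapping fetal and adult arrays and a difference of 1.52 ± 0.12 (SE; adjusted p = 5.02e-05). Kcnab2, a beta subunit of voltage-gated potassium channels, was higher by 1.29 ± 0.14 (SE; adjusted p = 0.000218). Tg, the thyroglobulin gene, was higher by 1.32 ± 0.10 (SE; adjusted p = 5.01e-05), and the hair keratin gene Krt33b by 1.12 ± 0.13 (SE; adjusted p = 0.000292), from fetal and adult values of 7.38 to 7.85. The calls on both sides of these 6 genes were kept throughout.

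Cgas, the sensor of cytosolic DNA, read 10.48, 10.23 and 10.06 in fetal, 11.71, 11.36 and 11.47 in neonatal and 10.37, 10.15 and 10.63 in adult arrays, with a difference of 1.19 ± 0.14 (SE; adjusted p = 0.000322), against 0.16 on a second, dimmer probe. Its call on both sides was lost without neonatal replicate 3. Stac3, an adaptor of excitation-contraction coupling in muscle, was higher by 1.33 ± 0.21 (SE; adjusted p = 0.00188), and the leucine-rich repeat membrane protein gene Lrrn1 by 1.45 ± 0.17 (SE; adjusted p = 0.000391). Gask1b was unlike these in that the adult arrays, at 11.13 to 11.74, lay clearly above the fetal ones, at 9.37 to 9.66, with the neonatal arrays at 12.23 to 12.75. A second, dimmer probe of Gask1b was not a peak and differed by 0.98. Tril, an accessory protein of Toll-like receptors, was higher by 0.85 ± 0.14 (SE; adjusted p = 0.00192). For Stac3, Lrrn1, Gask1b and Tril the call on both sides was lost in at least 4 of the 9 omissions.

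**Figure D4:**
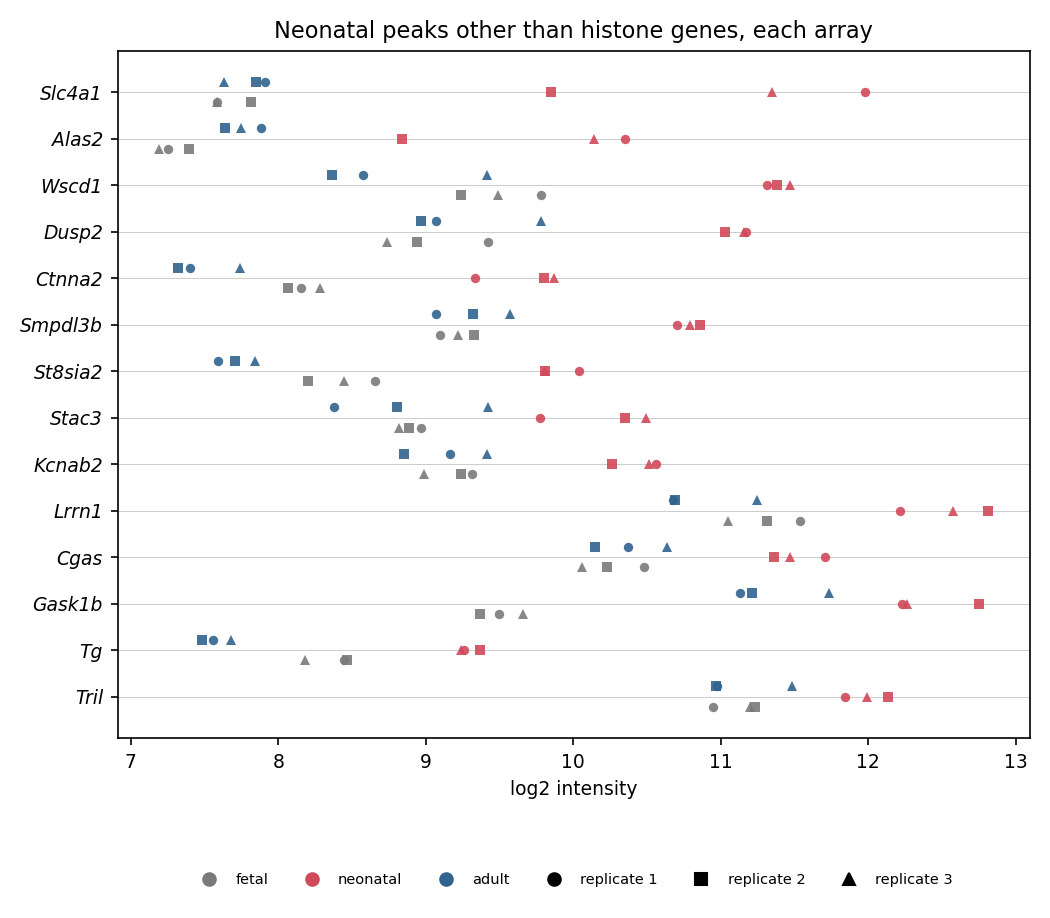
Log2 intensity (x axis) of the 14 non-histone genes among the 20 named peaks (rows), with 1 point per array, coloured by stage, and the symbols marking replicates. Neonatal points lie to the right of all others in each row, and the neonatal arrays of Slc4a1 and Alas2 spread the most, with replicate 2 lowest.

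Genes of the nerve and muscle contact were among the peaks. Of 20 acetylcholine receptor and synapse genes 5 were called higher, 0 lower and 3 were peaks, against 8.37%, 9.03% and 3.85% of all genes. The list had 0 genes called on both sides and a median difference of 0.06. Ret, a receptor for GDNF family ligands, read 9.34, 8.02 and 7.86 in fetal, 11.57, 11.54 and 11.50 in neonatal and 10.82, 10.46 and 10.92 in adult arrays. Adult arrays were between the others, fetal replicate 1 was above its 2 neighbours, and the difference was 1.97 ± 0.26 (SE; adjusted p = 0.000775). Nes, the intermediate filament nestin of progenitors and synaptic nuclei, was higher by 1.07 ± 0.14 (SE; adjusted p = 0.000655), mostly over adult cells. Chrnd, the delta subunit of the muscle acetylcholine receptor, read 8.31, 8.03 and 8.30 in fetal, 8.88, 8.96 and 9.14 in neonatal and 7.42, 7.35 and 8.44 in adult arrays and was higher by 1.02 ± 0.21 (SE; adjusted p = 0.00698).

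Among the genes of cell cycle control, 2 inhibitors were peaks and a cyclin was a trough. Cdkn2c, which encodes the CDK4 and CDK6 inhibitor p18, was a peak at 10.77, 10.89 and 10.79 in fetal, 11.61, 11.52 and 11.82 in neonatal and 11.002, 10.83 and 11.32 in adult arrays, higher by 0.72 ± 0.12 (SE; adjusted p = 0.00279). Its relative Cdkn2d was also a peak, higher by 0.55 ± 0.11 (SE; adjusted p = 0.00691; lost without neonatal replicate 3). Ccnd2, the D-type cyclin that activates those kinases, was a trough at 11.63, 11.89 and 12.001 in fetal, 10.76, 8.75 and 8.49 in neonatal and 10.96, 11.21 and 10.96 in adult arrays. Neonatal replicate 1 was 2 units above the other neonatal arrays and still below all others, and the difference was -2.11 ± 0.38 (SE; adjusted p = 0.00367). Of 21 genes of cell cycle inhibition and quiescence 4 were called higher and 4 lower, against 8.37% and 9.03% of all genes. These counts were 2 higher without neonatal replicate 3 and 2 lower without neonatal replicate 2.

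The matrix of the stem cell niche moved in both directions. Basement membrane genes, which encode the sheet between stem cell and surroundings, included 7 called higher and 4 lower of 20, with 5 peaks and 2 troughs. Shares over all genes were 8.37% higher, 9.03% lower, 3.85% peaks and 4.0% troughs. On both sides 0 of the 20 were called above and 1 below. Hspg2, the heparan sulphate proteoglycan perlecan, read 13.87, 13.46 and 13.39 in fetal, 14.49, 14.28 and 14.41 in neonatal and 13.72, 13.78 and 13.82 in adult arrays and was higher by 0.72 ± 0.12 (SE; adjusted p = 0.00233). Col15a1, a collagen of the outer basement membrane, read 13.50, 13.11 and 13.17 in fetal, 13.87, 13.91 and 14.13 in neonatal and 12.35, 12.17 and 12.85 in adult arrays and was higher by 1.11 ± 0.15 (SE; adjusted p = 0.00088). The laminin chain genes Lama2 and Lamc1 were higher by 0.72 ± 0.16 and 0.50 ± 0.13 (SE; adjusted p = 0.0119 and adjusted p = 0.0217). Lamc3, a laminin gamma chain, was a trough at -1.54 ± 0.19 (SE; adjusted p = 0.000521), and its fetal and neonatal arrays were both near the low end. The count of 7 was 3 without neonatal replicate 2 and 4 without neonatal replicate 3, and the count of 4 was 2 without neonatal replicate 2. Lama2 lost its call without neonatal replicate 2, and Lamc1 without any 1 of the 3 neonatal arrays.

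In 4 other matrix lists more genes were called lower than higher, against 9.03% lower and 8.37% higher of all genes. Matrix remodelling enzymes and inhibitors had 3 called higher and 9 lower of 46, matrix glycoproteins 2 and 9 of 35, proteoglycans 4 and 7 of 28, and matrix receptors 1 and 7 of 26. Counts of genes called lower in these 4 lists were 18, 13, 10 and 11 without neonatal replicate 1, 6, 5, 3 and 2 without neonatal replicate 2, and 6, 5, 3 and 1 without neonatal replicate 3. Counts of genes called higher were 1, 0, 3 and 0 without neonatal replicate 2 and 1, 0, 2 and 0 without neonatal replicate 3. Collagens had 4 called higher and 2 lower of 34, and 0 troughs. Without neonatal replicate 1 the 2 lower became 8, and without neonatal replicate 3 they became 0 and the 4 higher became 1. Of 4 matrix genes named whatever their values, Tnc (tenascin C) was called higher (0.66 ± 0.16, SE; adjusted p = 0.0167; lost without neonatal replicates 2 and 3) with a neonatal level between the other stages. Fn1 (fibronectin), Vcan (versican) and Col6a1 (collagen VI) were not called (0.11 ± 0.25, -0.05 ± 0.11 and 0.13 ± 0.11, SE).

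Secreted and matrix genes were among the named troughs. Sulf1, which trims heparan sulphate outside the cell, read 10.44, 10.05 and 10.19 in fetal, 9.47, 8.80 and 8.65 in neonatal and 12.58, 12.73 and 12.05 in adult arrays, with a difference of -2.36 ± 0.19 (SE; adjusted p = 6.02e-05). Angpt2, the vessel-destabilising angiopoietin, read 10.87, 10.62 and 10.64 in fetal, 9.89, 8.57 and 8.49 in neonatal and 10.91, 11.37 and 10.63 in adult arrays, and neonatal replicate 1 was more than 1 unit above its neighbours. Its difference was -1.86 ± 0.27 (SE; adjusted p = 0.0012), against -0.47 on a second, dimmer probe that was not a trough. The cytokine Il6 read 10.58, 9.55 and 9.90 in fetal, 9.05, 8.22 and 8.06 in neonatal and 10.06, 10.26 and 10.06 in adult arrays, a difference of -1.63 ± 0.24 (SE; adjusted p = 0.0012), with the same order among the neonatal arrays. Slit3, a guidance cue, was lower by a difference of -1.23 ± 0.20 (SE; adjusted p = 0.00215), and Ogn, the small leucine-rich proteoglycan osteoglycin, by -1.24 ± 0.19 (SE; adjusted p = 0.00162). Both other probes of Ogn were dimmer, were not troughs and differed by -0.65 and -0.70. Other probes of Sulf1 differed by -2.02, a trough, and by -0.36 and -0.48, which were not troughs. The chemokine Cxcl12 differed by -1.29 ± 0.17 (SE; adjusted p = 0.000717), and Timp1, an inhibitor of matrix metalloproteinases, by -1.03 ± 0.17 (SE; adjusted p = 0.00255). Calls of Sulf1, Angpt2, Il6, Slit3 and Ogn on both sides were each lost in 6 or more of 9 omissions, neonatal replicates 2 and 3 among them.

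Several markers of vessel walls were troughs too. Of 17 mural and smooth muscle markers 11 were called lower, 0 higher and 5 were troughs (6 called lower without neonatal replicate 3), against 9.03%, 8.37% and 4.0% of all genes, with a median difference of -0.67. The summed intensity of that list was 58682 to 69419 in fetal, 72979 to 80716 in neonatal and 99564 to 104607 in adult arrays, so the sum, which bright genes dominate, had no neonatal trough. Pdgfrb, the pericyte growth factor receptor, read 8.52, 8.86 and 8.65 in fetal, 8.44, 7.78 and 7.89 in neonatal and 9.15, 9.82 and 9.29 in adult arrays and differed by -1.01 ± 0.18 (SE; adjusted p = 0.00321). Tagln, the smooth muscle protein transgelin, read 8.97, 8.80 and 8.82 in fetal, 8.49, 8.39 and 8.38 in neonatal and 9.71, 10.26 and 9.89 in adult arrays and differed by -0.99 ± 0.12 (SE; adjusted p = 0.000521). Flt1, a VEGF receptor of endothelial cells, read 9.35, 9.51 and 9.12 in fetal, 8.68, 7.68 and 7.82 in neonatal and 9.88, 10.65 and 10.07 in adult arrays and differed by -1.70 ± 0.22 (SE; adjusted p = 0.000717). Of 20 endothelial markers 7 were called lower and 0 higher (11 lower without neonatal replicate 1, 4 without neonatal replicate 2 or 3). Only 2 were troughs, and the median step was 0.11 over fetal and -0.95 against adult cells, so the list as a whole had no neonatal trough. Of 18 fibroadipogenic markers 5 were called lower and 0 higher (9 without neonatal replicate 1, 3 without neonatal replicate 2 or 3). They had 0 troughs and median steps of -0.11 against fetal and -0.27 against adult cells. The part of these cell types in the troughs of the matrix and secreted genes was not tested.

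Enzymes were also among the named troughs. Acss1, which makes acetyl-CoA from acetate in mitochondria, read 9.71, 9.56 and 9.63 in fetal, 8.41, 8.31 and 8.25 in neonatal and 10.23, 10.26 and 10.20 in adult arrays. The 3 arrays of each stage lay close together, and the difference was -1.61 ± 0.09 (SE; adjusted p = 1.07e-05), with the call on both sides kept throughout. Adh1, an alcohol and retinol dehydrogenase, read 9.41, 8.97 and 9.10 in fetal, 7.49, 7.43 and 7.29 in neonatal and 11.04, 10.72 and 9.76 in adult arrays, with neonatal values at the low end and a difference of -2.43 ± 0.22 (SE; adjusted p = 9.98e-05), and its step to fetal cells of -1.76 was the largest smaller step of the 33 genes called below both. Gcat, of threonine breakdown, differed by -1.29 ± 0.16 (SE; adjusted p = 0.000551), Abat, of GABA breakdown, by -1.21 ± 0.13 (SE; adjusted p = 0.000208), and Tkt, the transketolase of the pentose phosphate pathway, by -0.95 ± 0.14 (SE; adjusted p = 0.00119). A second, dimmer probe of Abat was not a trough and differed by -0.64. In Tkt, neonatal replicate 1 read 8.87 against 8.30 and 8.36. The call on both sides was kept in 5 of 9 omissions for Adh1 and for Gcat, 6 for Abat and 2 for Tkt.

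Arhgef3 read 10.69, 10.26 and 10.38 in fetal, 9.18, 9.12 and 9.21 in neonatal and 10.71, 10.97 and 10.69 in adult arrays, a difference of -1.45 ± 0.12 (SE; adjusted p = 5.64e-05). Pdlim3, a LIM protein that binds alpha-actinin at the Z-line, read 12.05, 11.89 and 11.80 in fetal, 10.88, 10.73 and 10.53 in neonatal and 12.60, 12.39 and 12.50 in adult arrays, a difference of -1.49 ± 0.11 (SE; adjusted p = 5.01e-05). Tmc7 differed by -1.27 ± 0.11 (SE; adjusted p = 7.33e-05), and the histone demethylase Kdm7a by -1.15 ± 0.11 (SE; adjusted p = 0.000136), with neonatal arrays of 11.01 to 11.35 against 12.06 to 12.65 in the others. The other probes of Kdm7a were dimmer, were not troughs and differed by -0.54 and -0.14. Arhgef3, Pdlim3, Tmc7 and Kdm7a kept their calls on both sides throughout. Avpr1a, a vasopressin receptor, was lowest in neonatal arrays at 8.04 to 8.79, against 9.16 to 9.52 in fetal and 11.47 to 11.60 in adult arrays, so most of its difference of -2.14 ± 0.16 (SE; adjusted p = 5.01e-05) lay on the adult side. Igfbp5, which binds insulin-like growth factors, read 14.66, 14.99 and 15.01 in fetal, 14.37, 14.03 and 13.93 in neonatal and 15.46, 15.55 and 15.49 in adult arrays and differed by -1.08 ± 0.12 (SE; adjusted p = 0.000314).

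**Figure D5:**
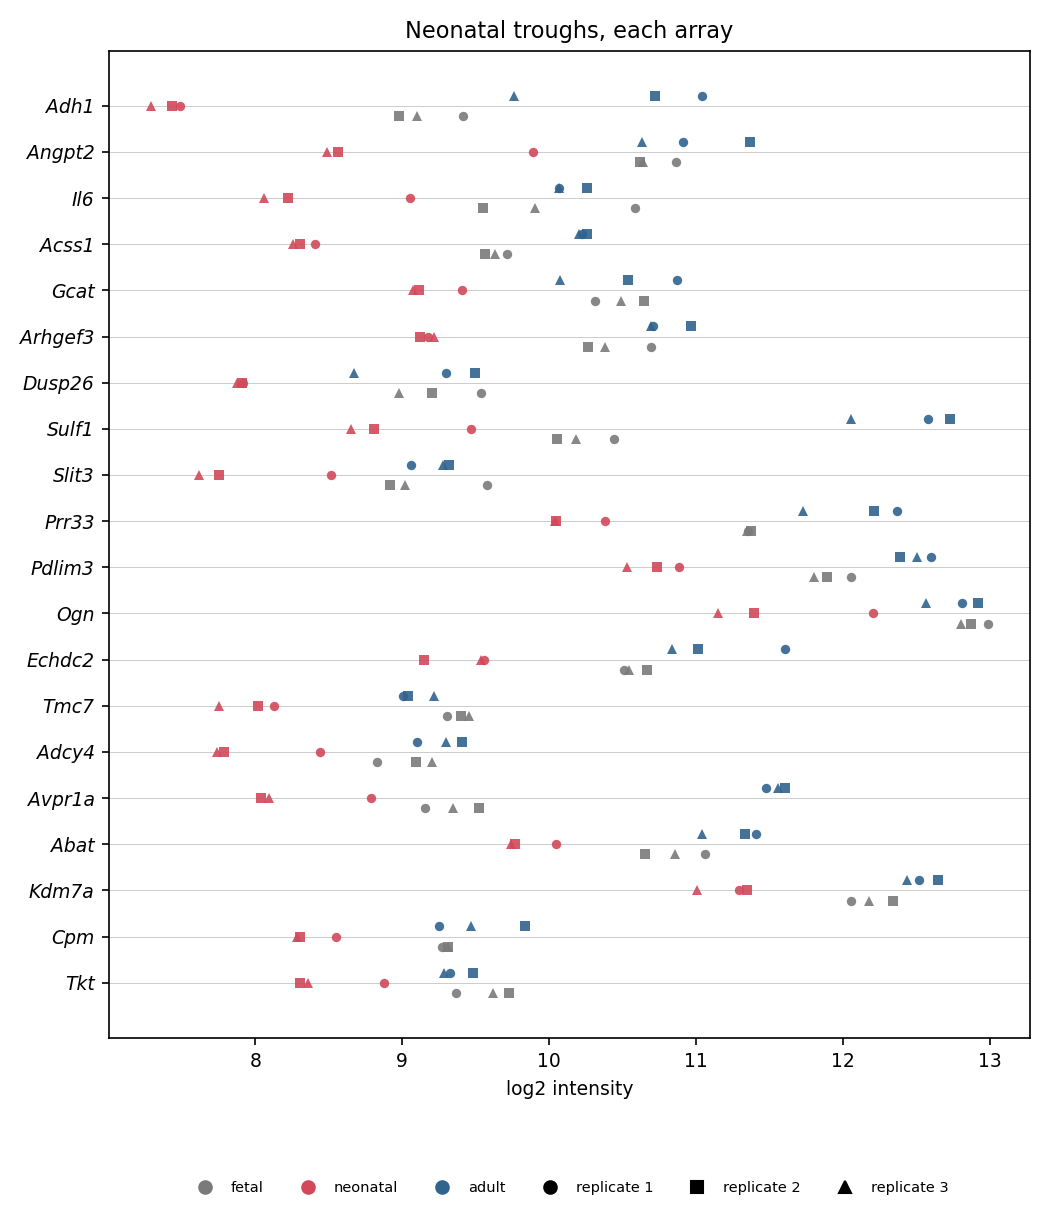
Log2 intensity (x axis) of the 20 named troughs (rows), with 1 point per array, coloured by stage, and the symbols marking replicates. Neonatal points lie to the left of all others in each row, and replicate 1 is the highest neonatal array in Angpt2, Il6, Sulf1, Slit3 and Ogn.

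Of 22 genes of cholesterol synthesis and uptake 0 were called higher, 6 lower and 5 were troughs, against 8.37%, 9.03% and 4.0% of all genes, with median steps of -0.41 to fetal and -0.30 to adult cells. Msmo1, a sterol oxidase, read 12.07, 11.51 and 11.49 in fetal, 11.06, 10.57 and 10.52 in neonatal and 11.81, 11.96 and 11.50 in adult arrays and differed by -1.01 ± 0.17 (SE; adjusted p = 0.00252), the sterol enzyme gene Hsd17b7 by -0.72 ± 0.15 (SE; adjusted p = 0.00763) and Srebf1, which drives lipid synthesis genes, by -0.58 ± 0.11 (SE; adjusted p = 0.0058). Sqle and Pmvk, also troughs, were not called (-0.37 ± 0.12 and -0.27 ± 0.11, SE). The count of 6 was 3 without neonatal replicate 2, 9 without adult replicate 3 and 10 without fetal replicate 3. Of 4 adipocyte markers measured 2 were also called lower, with a median difference of -0.82 and a median neonatal minus fetal step of -1.10. Their median level was 9.57, 8.50 and 8.52 in fetal, 8.21, 7.85 and 7.89 in neonatal and 8.21, 8.18 and 8.04 in adult arrays, with fetal replicate 1 highest. Their part in the sterol genes was not tested.

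Of 43 oxidative phosphorylation genes 6 were called higher, 0 lower and 6 were peaks, against 8.37% and 3.85% of all genes. The calls were 0 without neonatal replicate 2, 0 without neonatal replicate 3, and 15 without adult replicate 3. They were 3 without adult replicate 2, fetal replicate 2 or fetal replicate 3. With quantile normalization 3 were called higher, with background subtracted 2 and with array weights 20. Cox5a and Cox5b, subunits of cytochrome c oxidase, were higher by 0.49 ± 0.14 and 0.44 ± 0.12 (SE; adjusted p = 0.0296 and adjusted p = 0.0231). Of 35 genes of lipid uptake and fatty acid oxidation 4 were called higher and 4 lower, with a median difference of -0.05, 3 peaks and 1 trough. The 4 higher became 1 without neonatal replicate 2 or 3 and 2 without fetal replicate 1, and the 4 lower became 2 without neonatal replicate 3. The trough was Pparg, the nuclear receptor of fat cell formation, named here after its values were seen. It was the 1 gene of this list called on both sides (-0.95 ± 0.12, SE; adjusted p = 0.000655; kept on both sides in 3 of 9 omissions), and it is also an adipocyte marker. Etfb and Etfdh, which pass electrons from fatty acid oxidation to the respiratory chain, were peaks higher by 0.47 ± 0.11 and 0.55 ± 0.15 (SE; adjusted p = 0.0114 and adjusted p = 0.0262). All 4 lost their calls without neonatal replicate 2 and without neonatal replicate 3, Cox5a and Cox5b also without neonatal replicate 1 or fetal replicate 2, Cox5a without fetal replicate 3 or adult replicate 2, and Etfdh without fetal replicate 1. The promoters of Etfb, Etfdh, Col15a1, Lama2 and Hbb-bt held 0 matches on either strand to the interferon-stimulated response element, found in 3.49% of all promoters and 2.96% of those of genes tested, or to the E-box (CACGTG), found in 7.24% and 9.8%. They also held 0 matches to the D-box form TTANNTAA, found in 6.08% and 3.75%, and to the form spelt TTATGNAA, found in 3.52% and 2.28%.

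Contractile genes had 4 called higher and 9 lower of 37 (2 higher without neonatal replicate 2 or 3, fetal replicate 3, or adult replicate 1 or 2), against 8.37% and 9.03% of all genes, with the peak Myl2 and the troughs Sln, Myom1 and Tpm2. Myl2, a myosin regulatory light chain of slow and cardiac muscle, was likewise named after its values were seen. It read 7.48, 7.52 and 7.505 in fetal, 8.43, 8.51 and 8.54 in neonatal and 7.73, 7.71 and 8.10 in adult arrays, was higher by 0.82 ± 0.11 (SE; adjusted p = 0.000717) and was the 1 contractile gene called on both sides, a call kept in 2 of 9 omissions. Sln, which regulates the calcium pump of the sarcoplasmic reticulum, read 11.31, 9.88 and 9.83 in fetal, 9.08, 8.996 and 8.78 in neonatal and 10.07, 10.06 and 9.77 in adult arrays, with fetal replicate 1 above its neighbours, and differed by -1.21 ± 0.27 (SE; adjusted p = 0.011; lost without neonatal replicate 3). Myom1, the M-band protein myomesin, differed by -0.83 ± 0.10 (SE; adjusted p = 0.000491), mostly on the adult side, with steps of -0.26 to fetal and -1.40 to adult cells. The clock genes Per1 and Per2 were troughs, at -1.34 ± 0.20 and -0.55 ± 0.13 (SE; adjusted p = 0.00152 and adjusted p = 0.0154; Per2 lost without neonatal replicate 2 or 3), and Per1 read 10.86, 11.25 and 11.57 in fetal, 10.57, 10.38 and 10.37 in neonatal and 12.84, 12.35 and 11.81 in adult arrays. Of 15 clock genes 1 was called higher and 3 lower (1 lower without neonatal replicate 2 or 3). The median step of that list was 0.54 over fetal and -0.73 against adult cells. The hour at which cells were collected was not used here.

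Notch3, a Notch receptor that mural cells also express, read 11.84, 11.83 and 12.15 in fetal, 11.70, 11.44 and 11.63 in neonatal and 13.26, 12.95 and 12.52 in adult arrays, a trough with a difference of -0.83 ± 0.15 (SE; adjusted p = 0.00408), most of it on the adult side. Maml2, a coactivator of Notch transcription, differed by -1.09 ± 0.15 (SE; adjusted p = 0.00088). Over the Notch list 2 of 30 genes were called higher and 2 lower. Of 38 Wnt genes 0 were called higher and 4 lower, and of 39 genes of the TGF-beta and BMP pathway 1 higher and 8 lower, against 8.37% and 9.03% of all genes. Both counts of lower genes were 11 without neonatal replicate 1, and they were 2 and 5 without neonatal replicate 2 and 1 and 4 without neonatal replicate 3. The median step of the TGF-beta and BMP list was 0.004 over fetal and -0.41 against adult cells. Chemokine and inflammation genes had 1 called higher and 6 lower of 28 (10 lower without neonatal replicate 1). Their median step was 0.09 over fetal and -0.71 against adult cells. The peak was Cxcl10, an interferon-induced chemokine, at 1.19 ± 0.30 (SE; adjusted p = 0.0189; lost without neonatal replicate 2 or 3).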

How the data were processed

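Total RNA of sorted muscle stem cells was measured on 9 Illumina bead arrays, 3 per age. Extraction was by mirVana and labelling by the Illumina TotalPrep kit, per the labels' protocols. The authors deposited probe intensities on a linear scale. How they normalized them is not given in the sources used. Array quantiles were nearly equal (5th percentiles 177 to 182), so no further normalization was applied. The lowest intensities, 118 to 137, lay far above 0, which compresses changes of dim genes.

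Of 24538 probes 20211 had 1 gene symbol, 12 several and 4315 none in the table used. The probe with the highest mean stood for each of 12488 genes, of which 4997 had more than 1. Log2 intensities of all arrays were fitted with limma 3.58.1 in R 4.3.3 (lmFit, eBayes, two-sided, Benjamini-Hochberg adjustment over all genes). The contrast was neonatal minus the average of fetal and adult. The second test took the larger p of neonatal minus fetal and neonatal minus adult where both had 1 sign. Calls were at an adjusted p under 0.05, and differences are given ± SE. Tested on simulated data with 12488 genes, the contrast recovered 70.1%, 92.5% and 98.5% of genes changed 1.5-fold, 2-fold and 4-fold, with 16 false calls. The second test recovered 38.8%, 73.1% and 98.5%, with 0 false calls. Simulated fetal and adult levels were equal, with independent normal noise. In the data 5654 genes were called between adult and fetal cells. The simulation therefore gives no rate of false calls for genes that change at a single step.

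Named genes were the 20 peaks and 20 troughs with the largest smaller step among those called by the second test with a group mean at or above the median of all genes, up to 5 of each per gene list, and a fixed set (sort markers, myogenic factors, 4 matrix genes and Hba-a1). Histone genes, other erythroid genes and the CCAAT box, TATA box and GATA motifs were added after their values were seen. The members and the lists were chosen with earlier results of these data known. Promoters came from the RefSeq table for GRCm38.p6, where 386 of 481 peaks and 386 of 499 troughs had a window. Alternatives were quantile normalization, background subtraction, a filter on dim genes, the mean of all probes, an intensity trend with robust prior, array weights, the replicate block, fetal and adult as 1 group, a stricter threshold and leaving out each array.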

Additional observations from a re-analysis of the deposited data

How the results depend on the processing

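The 2173 genes called by the contrast became 1371 with dim genes left out (6244 genes tested), 3625 with array weights, 922 at an adjusted p under 0.01 and 67 with fetal and adult arrays fitted as 1 group, where their difference counts as spread. Without 1 array at a time the count was 834 to 2964, lowest without neonatal replicate 3. The 68 genes called on both sides became 35 with background subtracted, 32 with dim genes left out, 103 with trend and robust prior and 289 with array weights, and were 18 to 191 without 1 array at a time. The causes were not tested. Quantile normalization gave 2176 and 68 genes, and the mean of all probes 2176 and 61. Background subtraction gave 1476 contrast calls, and the trend and robust prior 2168.

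Replicate numbers recur in each stage. Of 9 correlations between arrays with the same number 6 were over 0.1, with a range of -0.06 to 0.29. Those between different numbers ranged from -0.27 to 0.23. In 5 of 9 comparisons of an array with a later stage, it correlated best with its own replicate number. The correlations are of deviations from the stage means, which ties the values within a stage to each other. The labels name no pairing, so the main fit used none. These values do not settle whether the numbers pair the arrays. With the replicate block the contrast called 2550 genes and the second test 107.

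Among the 112 named genes a sign changed for a few, and of these only Tpm2 was called. Tpm2, called lower, read 0.22 with the mean of all probes. Without 1 array at a time the uncalled differences ranged from -0.11 to 0.17 for Itga7, from -0.27 to 0.022 for Cd34, from -0.32 to 0.35 for Fn1 and from -0.15 to 0.063 for Vcan. Fn1 also read -0.036 with the mean of all probes and -0.13 with array weights, and Vcan 0.43 with background subtracted. Without neonatal replicate 2 the call was lost for 17 of the 112 genes, and without neonatal replicate 3 for 21.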

Other observations

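Ribosomal protein genes, which are bright and nearly constant, had 0 called higher and 2 lower of 42 (1 lower without any 1 array but adult replicate 3), against 8.37% and 9.03% of all genes, with a median difference of -0.07 and 3 troughs (Rpl22, Rpl4 and Rpl6). Rpl4 differed by -0.49 ± 0.09 (SE, limma adjusted p = 0.00391), mostly on the fetal side, with steps of -0.78 to fetal and -0.20 to adult cells. Glycolysis genes had 0 called higher and 6 lower of 22, with 0 peaks and 0 troughs (3 lower without neonatal replicate 2, fetal replicate 1 or adult replicate 2). Hypoxia response genes had 1 called higher and 6 lower of 22, with the peak Adm and the troughs P4ha1, Car12 and Ndrg1. Car12, a carbonic anhydrase, differed by -1.30 ± 0.13 (SE, adjusted p = 0.000178). Interferon and antigen presentation genes had 3 called higher and 10 lower of 34, with 1 peak, Ifit2 (3 lower without neonatal replicate 2 or 3, and 0 higher without neonatal replicate 3). That list had 0 troughs, and its median step was 0.38 over fetal and -1.07 against adult cells.

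Genes outside the naming rule had larger steps than some named ones, and are given after their values were seen. Mgp, the matrix Gla protein that keeps soft tissue from calcifying, read 13.63, 13.00 and 13.36 in fetal, 12.91, 10.99 and 10.76 in neonatal and 13.45, 13.82 and 13.22 in adult arrays. It was called lower by the contrast (-1.86 ± 0.38, SE, adjusted p = 0.00698; lost without neonatal replicate 3) and not on both sides, and neonatal replicate 1 was close to the other stages. Flvcr2, a transporter of the FLVCR family, was a peak at 8.63, 8.002 and 8.18 in fetal, 11.21, 11.11 and 10.87 in neonatal and 9.996, 9.75 and 10.49 in adult arrays (1.89 ± 0.18, SE, adjusted p = 9.98e-05).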
